A study of Mus musculus with 38 samples.

Results

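The genes described here are 8 adhesion molecules through which leukocytes stick to and cross the vessel wall: Sele, Selp, Vcam1, Icam1, Icam2, Jam2, F11r and Esam. Each was taken as the row of the count table whose mouse Ensembl identifier carries that symbol in the GRCm39 annotation, and each of the 8 symbols matched 1 row of the 35682 rows in the table.

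RNA was read from 3 cell populations of the hearts of male C57BL/6 mice, 8 to 12 weeks old, with the cells of 2 hearts pooled in each library. SHAM mice had the chest opened without coronary ligation and received vehicle (5% DMSO in saline) by mouth. Control_IR mice received the same vehicle for 6 weeks, then 30 min of ligation of the left anterior descending coronary artery and 2 h of reperfusion. EMPA_IR mice had the same ischemia and reperfusion after 6 weeks of empagliflozin, an inhibitor of the sodium-glucose cotransporter of the kidney, at 10 mg/kg per day. The tissue below the suture was digested with collagenase. Endothelial cells (EC) were sorted as CD45- CD31+ (4 SHAM, 4 Control_IR and 5 EMPA_IR libraries) and fibroblasts (FB) as CD45- CD31- CD90+ (4, 4 and 4). The methods name an antibody to CD45.1, whereas C57BL/6 mice carry the CD45.2 form, so what the CD45 gate removed is uncertain. Cardiomyocytes (CM) were spun down at low speed without sorting (4, 5 and 4). Where cells are pooled in bulk, fewer cells of a type and less RNA per cell cannot be told apart.

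Leukocyte recruitment proceeds in steps. E-selectin (Sele) and P-selectin (Selp) catch passing leukocytes by binding sugar-bearing ligands such as PSGL-1. P-selectin is also stored ready-made in endothelial granules and in platelets, whereas E-selectin must be transcribed anew when cytokines act on the vessel. The immunoglobulin-type receptors ICAM-1, ICAM-2 and VCAM-1 then hold leukocyte integrins, and JAM-A (F11r), JAM-B (Jam2) and ESAM sit at the junctions between endothelial cells that the leukocyte must pass.

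The libraries held 1352514 to 2195308 counts in EC, 1946056 to 2821373 in FB and 2031716 to 4509284 in CM, of which mitochondrial transcripts took 46.6% to 66.0% in CM and at most 14.6% in the sorted cells. At these depths 3 counts correspond to 0.665 to 2.22 CPM, the counts brought to a common library total. The 10 endothelial markers summed to 6630 to 12574 CPM in the EC libraries, against 157 to 801 in FB and 320 to 1183 in CM. The sorted libraries also held transcripts of other cells: FB libraries contained endothelial transcripts in unequal amounts, and 10 fibroblast markers summed to 3437 to 14395 CPM in the EC Control_IR libraries, against 877 to 2499 in SHAM and 740 to 1385 in EMPA_IR. One EC library (Control_IR 3) held 771 CPM of 12 leukocyte markers, where the other EC libraries held 12.8 to 146 CPM, and 1 FB library (SHAM 2) held 707 CPM. Below, CPM within a population are scaled with trimmed-mean (TMM) factors of that population. A gene was called where the adjusted p (Benjamini-Hochberg over all genes tested, edgeR quasi-likelihood test) was below 0.05.

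The selectin genes lie next to each other on chromosome 1, Sele (ENSMUSG00000026582) at chr1:163867401-163886055 and Selp (ENSMUSG00000026580) at chr1:163942833-163977595, both on the plus strand of GRCm39. The bases before their RefSeq start sites are shown because both genes were called higher after reperfusion, each in 1 of the sorted populations. Sequences are from RefSeq's promoter table (made on GRCm38.p6), placed in GRCm39 by an exact match that occurred once, and run 5′ to 3′ with the AP-1 element (TGANTCA, searched on both strands) in capitals. Of the members, Sele, Selp, Icam1 and F11r were in the table. The Sele sequence is chr1:163875553-163875739, 187 bases that end where the first annotated exon within the window begins. It lies inside the annotated Sele gene, whose span includes transcripts that start further upstream, and the Selp sequence is chr1:163942583-163942832, 250 bases.
Sele: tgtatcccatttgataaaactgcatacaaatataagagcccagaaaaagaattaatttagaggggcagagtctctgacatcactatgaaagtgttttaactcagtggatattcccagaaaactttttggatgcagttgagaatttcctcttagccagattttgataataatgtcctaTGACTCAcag
Selp: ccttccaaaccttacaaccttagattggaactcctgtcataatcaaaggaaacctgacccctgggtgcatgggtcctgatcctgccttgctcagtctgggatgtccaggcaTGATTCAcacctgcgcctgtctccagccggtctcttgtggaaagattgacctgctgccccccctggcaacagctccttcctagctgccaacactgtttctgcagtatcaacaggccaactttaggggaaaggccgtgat

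The element lay 73 to 67 bases before the Sele start, 139 to 133 before that of Selp and 109 to 103 before that of F11r, so 3 of the 4 windows of 250 bases held it, as did 6.75% of 32841 promoters of that length. A TATAAA stood 49 to 44 bases before the Sele start, and 12.4% of promoters held one on either strand. That match lies past the printed bases. The Icam1 window also lies inside its annotated gene, downstream of the first annotated start, and has no base before an exon. The NF-kappaB consensus was in none of the 4 windows and in 5% of all promoters, which says only that these letters are not in these 250 bases. GGGCGG was found, as its complement, in the windows of F11r and Icam1 (32.7% of promoters).

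In endothelial cells, reperfusion went with higher Selp and lower Icam2 and Jam2. Those 3 of the 8 members were called between Control_IR and SHAM, where 6.56% of the 10438 genes tested were called, 4.09% higher and 2.47% lower. Selp was 15.9, 14.3, 11.7 and 18.0 CPM in the SHAM libraries. It was 55.8, 353, 53.5 and 153 CPM in Control_IR, and 51.1, 278, 59.9, 234 and 59.2 CPM in EMPA_IR. Every reperfused EC library lay above every SHAM library, and in each reperfused group 2 libraries stood well above the others. The Control_IR difference from SHAM was 3.36 ± 0.86 on the log2 scale (SE, a 10.3-fold rise, adjusted p = 0.0446). EMPA_IR differed from SHAM by 3.19 ± 0.84 (9.15-fold) with an adjusted p of 0.0845. Selp was the 1 member whose EMPA_IR and SHAM groups did not overlap (6.56% of genes; 3.98% higher). The call for Control_IR is close to the threshold: it was lost without Control_IR 2 (log2 fold change 2.56, adjusted p = 0.0860) and on leaving out any of 6 other libraries, while DESeq2 gave an adjusted p of 0.000168. The fold itself stayed at 2.56 or more on the log2 scale in each of these fits.

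Sele followed the same libraries without being called. Its EC levels were 7.08, 5.23, 0.487 and 3.47 CPM in SHAM, where 1 to 12 counts were behind each value. They were 3.63, 44.4, 10.0 and 21.8 CPM in Control_IR and 3.77, 38.9, 6.22, 23.5 and 7.78 CPM in EMPA_IR. Control_IR 1, EMPA_IR 1 and EMPA_IR 3 fell within the SHAM range, so the groups overlapped. The log2 difference between Control_IR and SHAM was 2.28 (95% interval 0.20 to 4.36, adjusted p = 0.206).

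**Figure D1:**
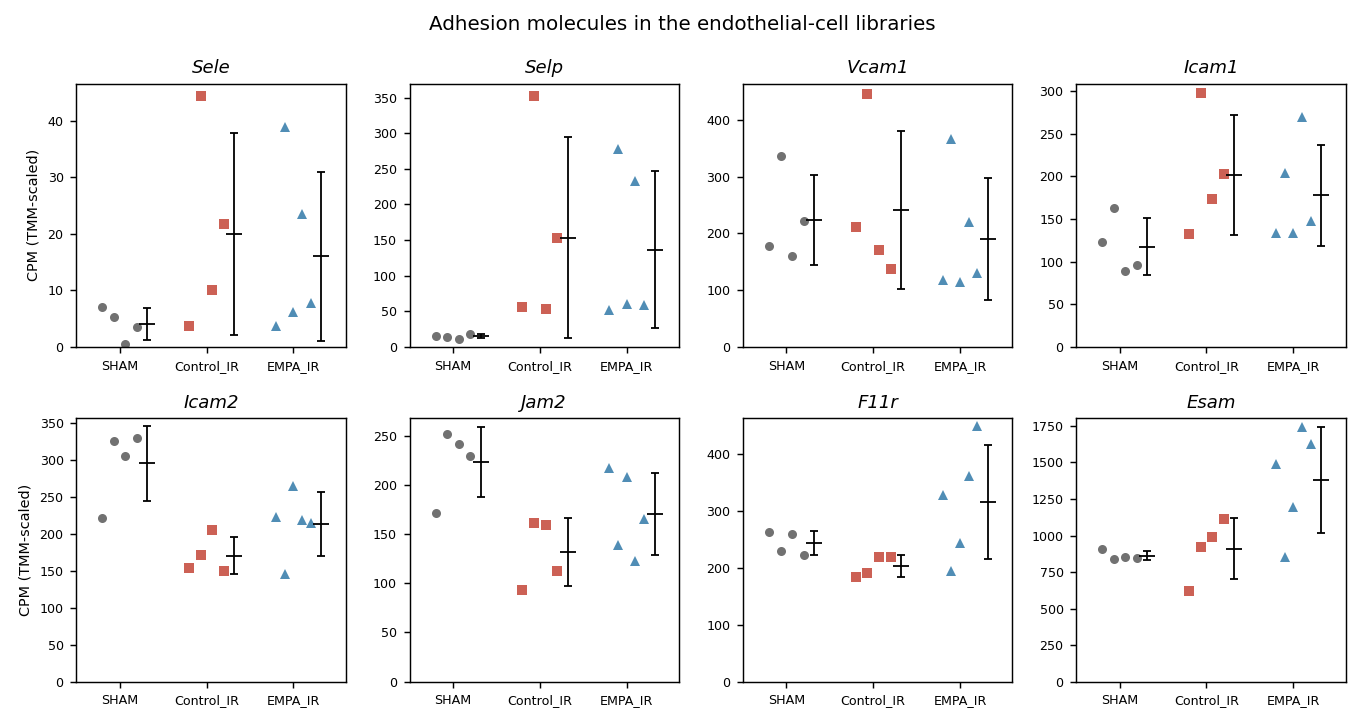
Levels of the 8 members in the 13 endothelial-cell libraries, as CPM scaled with TMM factors of this population (vertical axes start at 0), by group. Points are libraries and the bar beside each group is its mean ± SD. Selp was 11.7 to 18.0 CPM in SHAM and 51.1 to 353 CPM in the reperfused groups, whereas Icam2 and Jam2 were lower in every Control_IR library than in every SHAM library.

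Among the integrin receptors, Icam2 (ENSMUSG00000001029, chr11:106263312-106278943, minus strand), which endothelium carries at rest, was lower after reperfusion. Icam2 measured 221, 327, 306 and 329.7 CPM in SHAM and 155, 172, 206 and 151 CPM in Control_IR, and the groups did not overlap. The log2 difference was -0.79 ± 0.18 (1.73-fold lower, adjusted p = 0.00835). In EMPA_IR it was 223, 146, 266, 219 and 215 CPM, with 1 library below and 4 above all Control_IR libraries. Icam1 (ENSMUSG00000037405, chr9:20926672-20940113, plus strand), the cytokine-induced ligand of LFA-1, was 118 ± 33.8 CPM in SHAM (SD, n = 4), 202 ± 70.6 in Control_IR (n = 4) and 178 ± 59.2 in EMPA_IR (n = 5). Its range of 132 to 298 CPM in Control_IR met that of SHAM, 89.1 to 164, and the log2 difference of 0.77 (95% interval 0.17 to 1.37) had an adjusted p of 0.129. Vcam1 (ENSMUSG00000027962, chr3:115903598-115923355, minus strand), the ligand of the integrin VLA-4, gave 177, 336, 160.1 and 221 CPM in SHAM, 211, 445, 169.8 and 138 in Control_IR and 118, 366, 115, 219 and 129 in EMPA_IR. The 3 groups covered the same range (log2 difference 0.11, 95% interval -0.93 to 1.15, adjusted p = 0.936).

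Of the junction members, Jam2 (ENSMUSG00000053062, chr16:84570764-84623269, plus strand) fell. It was 172, 251, 242 and 229 CPM in SHAM and 93.0, 162, 159.7 and 113 CPM in Control_IR, with no overlap (log2 -0.77 ± 0.20, 1.70-fold lower, adjusted p = 0.0252). EMPA_IR libraries, at 217, 138, 208, 123 and 165 CPM, overlapped both groups. The Jam2 call was lost on leaving out SHAM 2, 3 or 4 or Control_IR 1 or 4 (adjusted p up to 0.103, log2 -0.62 without Control_IR 1). F11r (ENSMUSG00000038235, chr1:171265092-171292958, plus strand) was 244 ± 20.5 CPM in SHAM and 204 ± 18.7 in Control_IR. All Control_IR libraries were below all SHAM libraries, but with a log2 difference of -0.26 ± 0.19 it was not called (adjusted p = 0.491). With it, 4 of the 8 members had groups that did not overlap, 1 higher and 3 lower, where 11.3% of the genes tested had such groups (5.78% higher and 5.54% lower). Esam (ENSMUSG00000001946, chr9:37439344-37449615, plus strand), a junction protein of endothelium and platelets, was 861 ± 30.9 CPM in SHAM and 911 ± 211 in Control_IR (log2 0.08, 95% interval -0.33 to 0.49).

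The EC Control_IR libraries also differed from the others in the sums of cell type markers. The summed endothelial markers were 6630 to 8697 CPM there, 11532 to 12574 in SHAM and 8188 to 11166 in EMPA_IR, an order that Icam2 and Jam2 shared. Of the 10 endothelial markers, 0 had values above 0 between Control_IR and SHAM and 2 were called lower. Kdr alone was 3642 to 4727 CPM in SHAM and 1520 to 2382 in Control_IR. Pecam1 was 1824 to 2100 CPM in SHAM, and in Control_IR it was 2469 in library 2 and 1064 to 1307 in the others. Fewer endothelial cells and less RNA per cell cannot be told apart here. With the summed fibroblast markers as a term in the fit, Icam2 was at -0.53 (adjusted p = 0.679) and Jam2 at -0.34 (adjusted p = 0.849). Selp was then at 4.19 with an adjusted p of 0.395, and 2 genes in all were called. The fibroblast sums of Control_IR and SHAM did not overlap, so this term and the group cannot be told apart. Platelet markers summed to 25.5 to 98.9 CPM in Control_IR, 6.79 to 16.8 in SHAM and 11.9 to 28.8 in EMPA_IR, and the 4 of 8 platelet markers that passed the filter were all higher in Control_IR than in SHAM (median log2 2.71, 1 called). Pf4 reached 123 counts in Control_IR 3 and 0 to 19 in the other EC libraries, while Gp9 and Gp6 had at most 2 counts in any. The platelet markers also summed to 54.2 to 142 CPM in the FB libraries, SHAM included, so this sum does not single out platelets. Pf4 had 178 counts in FB SHAM 2, which like EC Control_IR 3 held the most leukocyte marker transcripts of its population. The part of these markers in the differences was not tested. A term for the place of a library in the sample sheet also ended the 3 calls (adjusted p = 0.116 for Selp, 0.102 for Icam2 and 0.151 for Jam2). Among EC libraries, list 4 of the sheet held only Control_IR 1 and 4, and list 3 only SHAM 1 and EMPA_IR 4 and 5. The list and the group are thus partly confounded and cannot be fully told apart. The gene body of Jam2 overlaps Atp5pf on the other strand by 9110 bases and that of Icam2 overlaps Prr29 by 6079 bases. Prr29 had no counts in EC, and Atp5pf was at -0.43 between Control_IR and SHAM (adjusted p = 0.141).

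Endothelial cells of mice given empagliflozin were compared with those of vehicle mice after the same ischemia and reperfusion, and 0 of the 8 members were called between EMPA_IR and Control_IR, against 2.63% of all genes (0 members by DESeq2, and 2 at an unadjusted p below 0.05). Those 2 are junction members. F11r was 184, 191, 219.9 and 219.8 CPM in Control_IR and 328, 195, 245, 361 and 450.04 CPM in EMPA_IR, where 4 of 5 libraries exceeded all of Control_IR (log2 0.63 ± 0.18, adjusted p = 0.0746). Esam was 618, 922, 989 and 1114 CPM in Control_IR against 1487, 851, 1192, 1745 and 1624 CPM in EMPA_IR (log2 0.60 ± 0.19, adjusted p = 0.111). In both genes EMPA_IR 2 was the lowest of its group. Without that library F11r was at 0.76 (adjusted p = 0.00872) and Esam at 0.73 (adjusted p = 0.0134), and both were called. Leaving out the lowest library of a group raises its mean, and this was the 1 omission of 13 that gave a call. F11r was lowest, at 0.47, without EMPA_IR 5, and Esam, at 0.43, without Control_IR 1. Fibroblast markers differed between these groups without overlap, as given above, and with them as a term F11r was at 0.30 and Esam at -0.038, neither called. Here too the term and the group cannot be told apart.

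The selectins were not lower under empagliflozin beyond the spread of the libraries. The log2 differences between EMPA_IR and Control_IR were -0.17 for Selp (95% interval -1.69 to 1.35) and -0.30 for Sele (-2.02 to 1.42), so that changes of more than 2-fold either way remain within the intervals. The interval was narrower for Icam1 (-0.18, from -0.74 to 0.38) and wide for Vcam1 (-0.35, from -1.33 to 0.64). Icam2 (0.33, from -0.02 to 0.67) and Jam2 (0.37, from -0.03 to 0.78) lay on the higher side. Between EMPA_IR and SHAM, 0 of 8 members were called (2.71% of all genes; 2 members by DESeq2, Selp and Esam; 4 at an unadjusted p below 0.05). Esam was the nearest to a call, at 0.68 ± 0.19 (adjusted p = 0.0541), next to Selp above. The other values were 1.98 for Sele, 0.59 for Icam1, -0.47 for Icam2, -0.39 for Jam2, 0.37 for F11r and -0.24 for Vcam1, with adjusted p of 0.158 to 0.867. These comparisons share the SHAM and Control_IR libraries and are not independent.

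**Figure D2:**
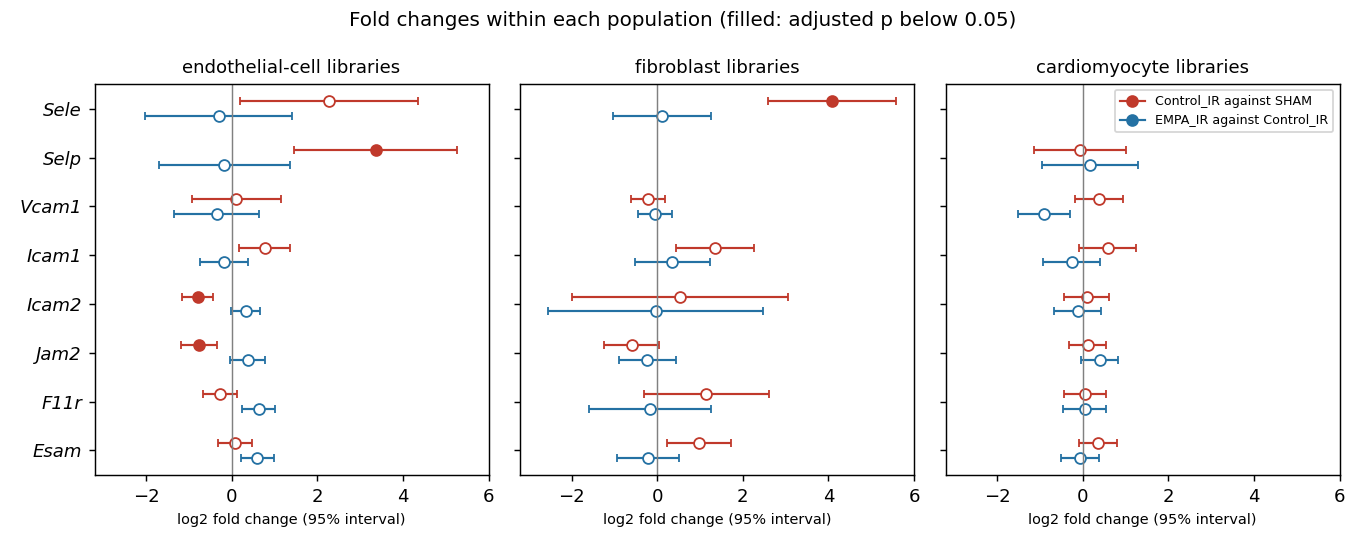
Log2 fold changes of the members within each population with 95% intervals, for Control_IR against SHAM and EMPA_IR against Control_IR. Filled points have an adjusted p below 0.05, and genes that did not pass the filter on low counts (Selp in fibroblasts, Sele in cardiomyocytes) have no point. The filled points are Selp (3.36), Icam2 (-0.79) and Jam2 (-0.77) in endothelial cells and Sele (4.08) in fibroblasts.

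In fibroblast libraries, the member called higher in both reperfused groups was Sele. Its counts were 2, 0, 4 and 6 in SHAM, 25, 44, 18 and 115 in Control_IR and 29, 30, 38 and 78 in EMPA_IR. In CPM this was 1.13 ± 0.937 in SHAM, 20.5 ± 18.2 in Control_IR and 22.2 ± 10.7 in EMPA_IR (SD, n = 4 each). All 8 reperfused libraries were above all 4 SHAM libraries, a separation that 12.3% of genes had in Control_IR (6.63% higher) and 11.8% in EMPA_IR (6.59% higher), and the highest in each reperfused group was replicate 4. Sele was called in Control_IR (4.08 ± 0.70 on the log2 scale, 16.9-fold higher, adjusted p = 0.00415) and in EMPA_IR (4.19 ± 0.71, 18.3-fold higher, adjusted p = 0.00341), each against SHAM. It passed the filter on low counts through the reperfused libraries alone, since no SHAM library reached 10 counts. Without Control_IR 4 the Control_IR difference was 3.27 with an adjusted p of 0.00330. Between EMPA_IR and Control_IR the log2 difference was 0.11 (95% interval -1.02 to 1.25).

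Sele was the 1 of 7 members tested that was called between Control_IR and SHAM in fibroblasts (4.16% of 10691 genes; 2.99% higher). Between EMPA_IR and SHAM, Sele and Icam1 were called, 2 of 7 (5.11% of genes; 3.65% higher). Icam1 was 42.4, 48.8, 26.0 and 42.0 CPM in SHAM, 45.2, 146, 98.8 and 116 CPM in Control_IR and 77.8, 142, 63.2 and 236 CPM in EMPA_IR. All EMPA_IR libraries exceeded SHAM (log2 1.70 ± 0.42, 3.26-fold higher, adjusted p = 0.0363), and 3 of 4 Control_IR libraries did (1.35 ± 0.42, adjusted p = 0.0953). The EMPA_IR call was lost on leaving out any of 8 libraries (adjusted p up to 0.0998), so its side of the threshold rests on single libraries while its direction does not. None of the 7 was called between EMPA_IR and Control_IR, as none of the 10691 genes was (0%; 0 members and 0 genes by DESeq2; 0 members and 170 genes at an unadjusted p below 0.05).

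**Figure D3:**
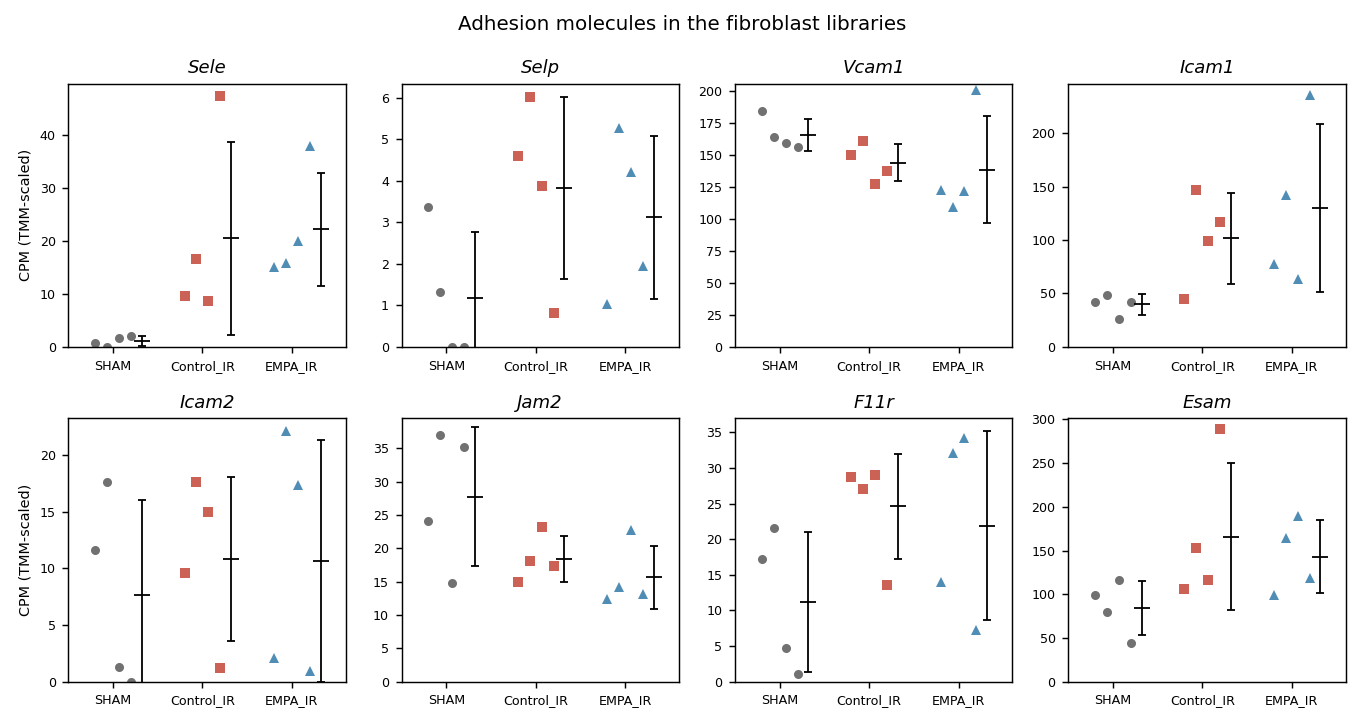
Levels of the 8 members in the 12 fibroblast libraries, as CPM scaled with TMM factors of this population (vertical axes start at 0), by group, with the mean ± SD beside the points. Sele was at most 2.05 CPM in SHAM and at least 8.72 CPM in every reperfused library, while Icam2 split within each group between 0 to 2.08 CPM and 9.58 to 22.1 CPM.

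None of the other 5 members tested in fibroblasts was called, and some varied within groups as the endothelial markers did. Icam2 had 31, 40, 3 and 0 counts in SHAM, 25, 47, 31 and 3 in Control_IR and 4, 42, 33 and 2 in EMPA_IR. The 5 libraries with at most 4 counts of Icam2 were those in which the endothelial markers summed to 157 to 203 CPM, and in the other 7 the sum was 539 to 801 CPM. F11r was also lowest within its group in those libraries, at 4.77 and 1.02 CPM in SHAM, 13.6 in Control_IR and 14.0 and 7.29 in EMPA_IR. Sele did not share this split: the libraries with the highest Sele in their groups, Control_IR 4 and EMPA_IR 4, held 4 and 0 counts of Cdh5, the VE-cadherin gene of endothelial junctions. With the summed endothelial markers as a term, the Sele rise in Control_IR kept its call (4.35, adjusted p = 3.01e-05). Control_IR 4 and EMPA_IR 4 also had the highest sum of 10 mural cell markers in their groups, 6317 CPM against 910 to 1466 and 3270 CPM against 1630 to 2844, while SHAM libraries held 1159 to 3320 CPM. With that sum as a term Sele was at 3.77 in Control_IR (adjusted p = 0.000128) and 3.81 in EMPA_IR (adjusted p = 0.000131). Which cells of the CD31- CD90+ fraction carried Sele was not tested.

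Vcam1 was a fibroblast transcript as well, at 166 ± 12.5 CPM in SHAM, 144 ± 14.8 in Control_IR and 139 ± 41.8 in EMPA_IR (n = 4 each). Jam2 was 27.7 ± 10.4 CPM in SHAM, 18.4 ± 3.51 in Control_IR and 15.6 ± 4.75 in EMPA_IR, and Esam 84.6 ± 31.1, 166 ± 84.4 and 143 ± 41.6 CPM. None of these 3 was called (adjusted p of 0.135 to 0.600 for Control_IR and 0.136 to 0.462 for EMPA_IR, each against SHAM). Selp did not pass the filter on low counts in fibroblasts, with 0 to 9 counts in SHAM and 2 to 16 after reperfusion.

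**Figure D4:**
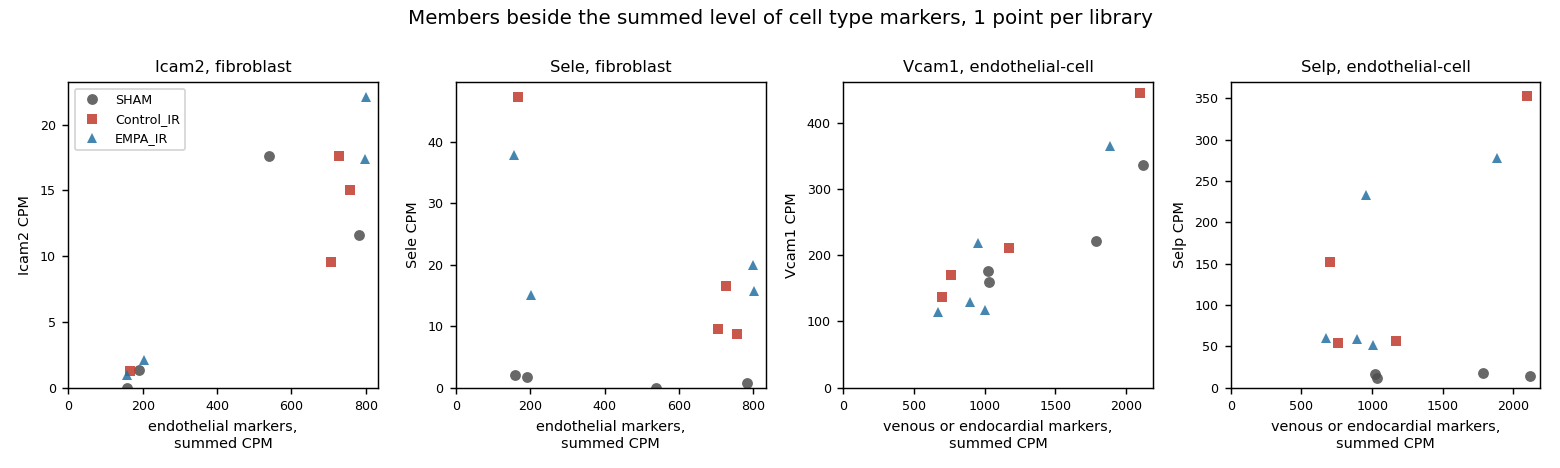
Members beside the summed CPM of cell type markers, 1 point per library, for Icam2 and Sele in fibroblast libraries (10 endothelial markers) and Vcam1 and Selp in endothelial-cell libraries (7 venous or endocardial markers). Icam2 was at most 2.08 CPM where the fibroblast libraries held 157 to 203 CPM of endothelial markers, whereas Sele reached 47.3 CPM there. Vcam1 was 336, 445 and 366 CPM in the 3 endothelial-cell libraries with the largest venous or endocardial sums, and Selp was low in SHAM at any sum.

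The sums of vessel type markers varied between the EC libraries too. Markers of veins or endocardium, including Vwf and Npr3, summed to 2119 and 1786 CPM in SHAM 2 and 4, to 2098 in Control_IR 2 and to 1887 in EMPA_IR 2, against 671 to 1169 in the other 9. That list also holds Ackr1, at 0 to 9 counts per EC library, and Lrg1, which followed Sele (Pearson r of 0.905). Lymphatic markers summed to 1168 CPM in Control_IR 2 and 1427 in EMPA_IR 2, against 335 to 620 in the other reperfused EC libraries and 440 to 800 in SHAM. The kind of vessel behind these sums was not tested. Vcam1 was highest of its group in SHAM 2, Control_IR 2 and EMPA_IR 2. Selp, Sele and Icam1 were also highest in Control_IR 2 among the Control_IR libraries, but in SHAM 2 and 4 Selp stayed at 14.3 and 18.0 CPM. With this sum as a term, Selp was called in both reperfused groups against SHAM (adjusted p = 0.0161 and 0.0260) and Icam1 in Control_IR (log2 0.91, adjusted p = 0.0366).

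In cardiomyocyte libraries 0 of the 7 members tested were called between Control_IR and SHAM (0.0655% of 9167 genes; 0 at an unadjusted p below 0.05 and 0 by DESeq2), and 0 between EMPA_IR and SHAM (0.338%; 1, Jam2, at an unadjusted p below 0.05 and 0 by DESeq2; its groups did not overlap, as in 7.88% of genes, 3.44% higher). Between EMPA_IR and Control_IR 0 were called (0.0218%), with 1, Vcam1, at an unadjusted p below 0.05 and by DESeq2. Vcam1 was 13.4, 21.7, 19.7, 24.7 and 21.6 CPM in Control_IR and 11.8, 6.05, 7.07 and 17.6 CPM in EMPA_IR, and the ranges overlapped (log2 -0.90 ± 0.29, adjusted p = 0.0794). The endothelial markers summed to 557 to 1183 CPM in those Control_IR libraries and 320 to 653 in EMPA_IR, and the fibroblast markers to 1382 to 4383 and 336 to 1717. Icam2 was 17.4 ± 3.22 CPM in SHAM, 18.7 ± 4.32 in Control_IR and 17.6 ± 6.78 in EMPA_IR. Sele had 0 to 13 counts in any CM library and was not tested.

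Whether the changes differed between populations was tested in a fit over all 38 libraries. Per the methods, cardiomyocytes and the sorted cells were separated from the same heart digests. Which libraries shared hearts is not given, and the fit treated all libraries as independent. For Control_IR against SHAM, 0 of 8 members differed between EC and FB (3.22% of 12085 genes), between EC and CM (1.51%) or between FB and CM (0.331%). For EMPA_IR against Control_IR, 0 of 8 differed in the same 3 pairs (2.04%, 0.993% and 0.00827%). DESeq2 gave 1 call among these, Selp for EC against CM in Control_IR, and at an unadjusted p below 0.05 there were 2, 2, 0, 1, 0 and 0 members in the order given. For Selp the EC minus CM difference of the change was 3.48 ± 0.98 on the log2 scale (adjusted p = 0.0683). For Sele the EC minus FB difference was -1.77 (95% interval -4.10 to 0.55, adjusted p = 0.594). A rise of Sele that was called in fibroblasts and not in endothelial cells is thus not shown to differ between them.

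In SHAM hearts the members showed the following order across the populations, in CPM scaled over all 38 libraries together. The tests are from the same fit, which takes no account of hearts shared between populations. Icam2, Jam2, F11r and Esam were highest in EC, then CM, then FB, and all 3 steps were called for each of the 4. The order of CM and FB for Jam2 and Esam depends on this common scaling. Scaled within each population, Jam2 was 17.2 CPM in CM and 27.7 in FB, and Esam 55.3 and 84.6. Icam2 and F11r stayed higher in CM, at 17.4 against 7.63 and 29.3 against 11.2. The CM totals behind those values include the large mitochondrial share given above. Endothelial markers moved with the step from CM to FB: 9 of 10 were called lower in FB than in the unsorted CM (median log2 -3.02), and their part in it was not tested. Icam2 was 186 ± 33.8 CPM in EC, 39.6 ± 7.21 in CM and 5.14 ± 5.66 in FB (n = 4 each). The F11r levels were 153 ± 11.9, 66.5 ± 8.76 and 7.53 ± 6.59 CPM in the same order. Jam2 stood at 141 ± 24.2, 39.1 ± 4.64 and 18.7 ± 6.90 CPM, and Esam at 542 ± 13.2, 126 ± 16.3 and 57.3 ± 21.3 CPM. The EC libraries exceeded FB by 5.19 on the log2 scale for Icam2, 4.36 for F11r, 3.24 for Esam and 2.90 for Jam2 (adjusted p of 5.86e-08 or less).

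The 4 other members departed from that order. Icam1 was 74.2 ± 22.2 CPM in EC, 26.9 ± 6.42 in FB and 18.7 ± 0.938 in CM, and FB and CM did not differ beyond their spread (log2 0.52, adjusted p = 0.270). This too depends on the common scaling, since within populations Icam1 was 39.8 CPM in FB and 8.23 in CM. Vcam1 was 141 ± 52.2 CPM in EC and 112 ± 8.77 in FB, a log2 difference of 0.33 (95% interval -0.33 to 0.99, adjusted p = 0.463), and 35.0 ± 7.17 in CM, below both. The interval of the EC and FB difference includes close to a 2-fold excess in EC, so a difference of that size was not shown and remains within the interval. Selp was 9.41 ± 1.64 CPM in EC and 8.85 ± 8.18 in CM, where single libraries ran from 1.56 to 20.2, and 0.795 ± 1.08 in FB. Sele was near the limit of counting everywhere, at 2.55 ± 1.75 CPM in EC, 0.769 ± 0.634 in FB and at most 2 counts per library in CM, and no order could be read from it. In all, 6 of 8 members were called between EC and FB (37.7% of genes, 17.6% higher in EC), 6 between EC and CM (52.9%, 24.8% higher in EC) and 6 between FB and CM (47.3%). Every called member was higher in EC than in the other population, and between FB and CM Vcam1 was higher in FB (22.7% of genes) and the other 5 lower (24.5%). When the list of the sample sheet was a term, Selp was no longer called between EC and FB (1.90, adjusted p = 0.366). The SHAM libraries of EC and FB shared no list, so among them the list and the population cannot be told apart.

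**Figure D5:**
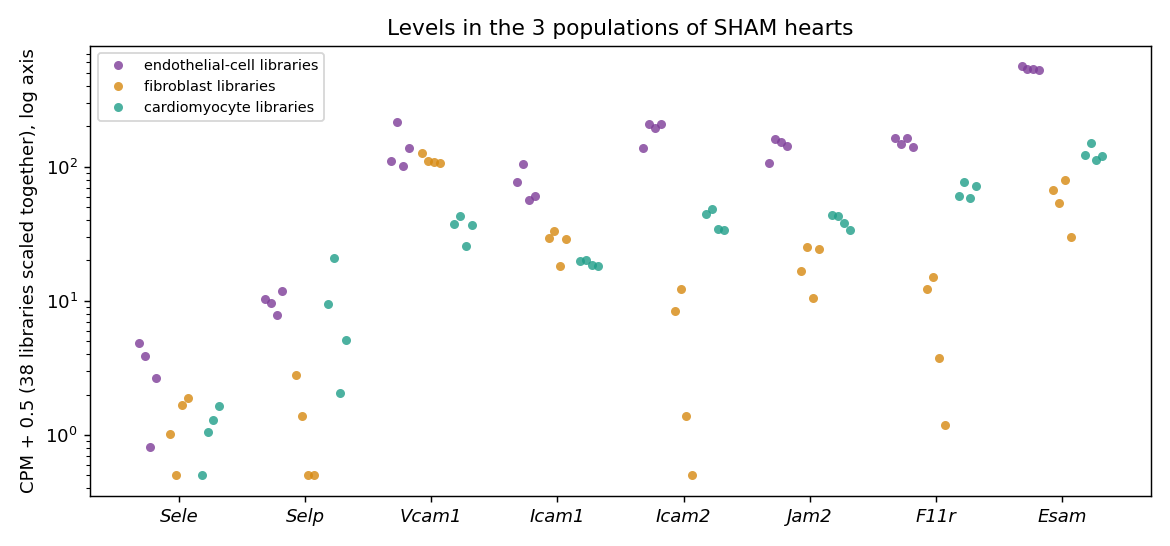
Levels of the members in SHAM hearts in endothelial-cell, fibroblast and cardiomyocyte libraries (4 each), as CPM + 0.5 on a log axis with all 38 libraries scaled together. Points are libraries. Icam2, Jam2, F11r and Esam descend from endothelial cells to cardiomyocytes to fibroblasts, and Vcam1 overlaps between endothelial cells (101 to 216 CPM) and fibroblasts (106 to 125 CPM).

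Partners of these molecules were taken from lists. In EC, 6.56% of all genes were called between Control_IR and SHAM, and 2 genes with fibroblast markers as a term. Of 16 selectin ligands and leukocyte integrins, 7 passed the filter in EC, and Podxl (podocalyxin, log2 -0.83, adjusted p = 0.0123) and Emcn (endomucin, also 1 of the endothelial markers, -0.56, adjusted p = 0.0337) fell in Control_IR against SHAM. Of 10 enzymes that build selectin ligands, 6 passed, and B4galt1, a galactosyltransferase, rose (1.05, adjusted p = 0.00346). Of 14 other adhesion molecules of the immunoglobulin kind 8 passed, and Jam3, which encodes JAM-C, the binding partner of JAM-B, fell (-0.80, adjusted p = 0.0447). Of 14 endothelial junction genes 12 passed, and Afdn, the afadin scaffold (-0.76, adjusted p = 0.0180), and Ctnnb1, the beta-catenin of adherens junctions (-0.61, adjusted p = 0.0211), fell. The median log2 change was -0.37 in that list and -0.02 over all genes tested. It was -0.53 in the 10 endothelial markers, which share Pecam1, Cdh5 and Cldn5 with the junction list. None of 8 actin linkers was called. Of 13 receptors for inducing cytokines 11 passed, and Il1r1 (0.98, adjusted p = 0.00264) and Il6ra (1.68, adjusted p = 0.0127) rose.

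Between EMPA_IR and Control_IR, 2 genes of these lists were called in EC, where 2.63% of all genes were, and with the fibroblast term 0 genes were called. All 10 endothelial markers, Cdh5 among them, had values above 0 in this comparison (1 called), and 9 of 9 fibroblast markers tested were called lower. Cdh5 was 430.2 ± 115 CPM in Control_IR and 669 ± 115 in EMPA_IR (log2 0.64, adjusted p = 0.0476), and Il6ra was 28.1 ± 16.0 and 10.6 ± 1.57 CPM (-1.40, adjusted p = 0.0418). Against SHAM, Il1r1 was higher in EMPA_IR too (0.95, adjusted p = 0.00232), at 154 ± 39.3 CPM against 79.8 ± 7.74. In fibroblasts, the called genes of the lists in Control_IR against SHAM were B4galt1, Il6ra and Il1r1, all higher, and in EMPA_IR against SHAM the same 3 and Msn (moesin), also higher. No gene of these lists was called in the cardiomyocyte libraries.

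The genes whose log2 CPM followed each member most closely over the 13 EC libraries were sought among the 10438 genes tested. These correlations are descriptions, over libraries that share groups, depth and cell content. Sele was most like Nsd3, Icam1 and Lrg1 (Pearson r of 0.918, 0.913 and 0.905), and Icam1 most like Sele, Ier3 and Acer2 (0.913, 0.910 and 0.895). Selp went with Txnrd1, Gclc and Nsd3 (0.960, 0.956 and 0.955). Vcam1 was closest to Cpe, Clu and Bmx (0.942, 0.920 and 0.912), Icam2 to Tnfsf10, Podxl and Dusp3 (0.957, 0.948 and 0.939), and Jam2 to Fgd5, Cyyr1 and Cav1 (0.964, 0.932 and 0.930). The nearest to F11r were Sh2d3c, Cd300lg and Jup (0.881, 0.880 and 0.867), and to Esam B4galt4, Sh2d3c and Mcf2l (0.924, 0.924 and 0.915).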

How the data were processed

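Poly(A) 3′ libraries (QuantSeq 3′ FWD), which give 1 read per transcript so that counts do not grow with transcript length, were made from 38 samples in 9 groups. Per the labels and the study's methods, the authors checked reads with FastQC, trimmed them with cutadapt 2.8 at quality 20 and counted them with Salmon on GRCm39 with Ensembl annotation. The deposited values are expected counts per gene (4.55% of cells are not whole), which were rounded here. Whether counting used strand is not given in the sources used here.

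edgeR 4.0.16 (R 4.3.3) was fitted to each population with its 3 groups (filterByExpr, minimum count 10, TMM, robust quasi-likelihood), and to 9 groups together for SHAM populations and differences of change. Significance was an adjusted p below 0.05. CPM correlations used a prior count of 2. SE is the log2 fold change over the root of F. Replicates within a group are separate pools of hearts, as far as the labels say. Libraries of different populations can share hearts, which the fit to 9 groups did not model. Alternatives were DESeq2 1.42.0, other factors, filters and terms, and leaving out libraries. Named genes were the 8 members, list genes called in EC (at most 4 per list and comparison, smallest adjusted p), and the 3 most correlated genes. The fit was tested on simulated data. Members and lists were chosen with earlier results of these data known. No 2 libraries of a group agreed within sampling noise.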

Additional observations from a re-analysis of the deposited data

Results flagged for a closer look

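A pair of values stood apart from the rest of their group by a gap test (Dixon's 95% limit, which chance passes in about 1 of 20 groups) among 66 groups of 4 or 5 libraries. A pair among 66 groups is no more than that rate gives. Vcam1 in the fibroblast library EMPA_IR 4 was 201 CPM, where the other 3 of its group were 109 to 123 CPM. F11r in the fibroblast library Control_IR 4 was 13.6 CPM, where the others were 27.0 to 29.1 CPM. Both libraries are among the 5 fibroblast libraries with the fewest endothelial marker transcripts, and the part of this in either value was not tested.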

How the results depend on the processing

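No called value of a member changed sign under any alternative, and of 1113 alternative values 1018 kept their direction and side of the threshold, 38 lost and 29 gained a call, and 28 values that were not called changed sign. The cause of these changes was not tested unless the alternative itself shows it. Terms for marker sums and leaving out both replicates 2 were chosen after seeing the data. In EC, the 3 members called between Control_IR and SHAM became 0 with the sheet's lists or fibroblast markers as a term, and 1 to 3 on leaving out a library (Icam2 alone without SHAM 2, 3 or 4 or Control_IR 4, and Jam2 also lost its call without Control_IR 1). Neither of these terms can be fully told apart from the group, as given above. Selp was also not called with a term for the sample-name block (adjusted p = 0.107). Between EMPA_IR and Control_IR the 0 members became 2 with no filter or without both replicates 2, and 0 to 2 without 1 library. Between EMPA_IR and SHAM the 0 became 2 with DESeq2 and 1 with no filter, no robust estimation, only the 2 groups, without both replicates 2 or a venous marker term, and 0 to 1 without 1 library. In FB, the 1 between Control_IR and SHAM became 2 with DESeq2 or only the 2 groups and 0 where every library needed 10 counts, since Sele was then not tested. It was 1 to 2 without 1 library. The 2 between EMPA_IR and SHAM became 1 with no filter, 10 counts in every library, the sample-name block, or endothelial or mural terms, and 1 to 2 without 1 library. In CM, the 0 between EMPA_IR and Control_IR became 1 (Vcam1) with DESeq2 and 0 to 1 without 1 library. For the EC minus CM difference, 0 became 1 (Selp) with DESeq2 or no robust estimation. In SHAM, 6 became 3 with 10 counts in every library for EC against FB and FB against CM, where fewer members were tested.

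Of uncalled values in EC, Vcam1 between Control_IR and SHAM was -0.13 with the sample-name block, -0.37 without both replicates 2, -0.054 with fibroblast markers and -0.35 to 0.39 without 1 library. F11r was 0.0063 with fibroblast markers, and Esam -0.022 with venous markers and -0.033 to 0.24 without 1 library. Between EMPA_IR and Control_IR, Selp was 0.22 and Icam1 0.021 without both replicates 2. Without 1 library Selp was -0.61 to 0.62, Sele -0.95 to 0.44, Vcam1 -0.73 to 0.10 and Icam1 -0.38 to 0.048. With fibroblast markers Icam2 was -0.0099, Jam2 -0.17 and Esam -0.038. Between EMPA_IR and SHAM, Vcam1 was 0.17 with venous markers and -0.62 to 0.010 without 1 library. In FB between EMPA_IR and Control_IR, Sele was -0.13 with the sample-name block and -0.28 to 0.93 without 1 library, and Icam1 -0.11 to 0.58.

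Replicate numbers did not pair the libraries throughout, and a partial pairing is not excluded. Deviations of same-numbered libraries correlated above 0.1 in 4 of 12 pairs in EC, 6 of 12 in FB and 3 of 12 in CM. The most alike library of another group bore the same number in 10 of 24 comparisons in EC, 10 in FB and 8 in CM. Each choice was among 4 or 5 libraries, so these shares are above those of an even draw. The comparisons share libraries, and the excess was not tested. In FB, replicate 4 correlated at 0.28 to 0.48 between groups. With the replicate block, 1 member (Selp, adjusted p = 0.00481) was called between EMPA_IR and SHAM in EC and 2 between Control_IR and SHAM in FB, and Selp between EMPA_IR and Control_IR in EC was 0.067.

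All genes called between Control_IR and SHAM in EC numbered 685, from 2 with fibroblast markers to 889 with DESeq2, and between EMPA_IR and Control_IR 274, from 0 with fibroblast markers to 508 without both replicates 2. The CM counts of 6, 2 and 31 ranged over 2 to 20, 0 to 1498 and 2 to 943. Depth limited Sele in SHAM, at 0 to 12 counts per library.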
